A study of Mus musculus with 5 samples.

Results

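The E proteins Tcf3, Tcf4 and Tcf12 and the Id factors Id1, Id2, Id3 and Id4 were followed through 5 Tag-seq libraries of the mouse heart at embryonic day 10.5. The 7 genes were chosen by name, as the class I basic helix-loop-helix (bHLH) proteins and their inhibitors, out of 24303 genes of the reference, of which 13486 had a tag. All 7 had tags in all 5 libraries. Of the libraries, 4 were made from wild-type C57BL/6 embryos, for the atrioventricular canal (AVC), the outflow tract (OFT), the atria and the ventricles, and 1 was made from the AVC of embryos of genotype Twist1 Knockout on an ICR background, called the Twist1 null AVC here. Each library pooled tissue of at least 3 litters at Theiler stage 17, and there was 1 library per group. The spread between embryos was therefore not measured, each test compares libraries and not conditions, and genotype and strain cannot be told apart in the null.

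Most bHLH factors of a tissue bind DNA as pairs with an E protein. Class I factors such as Tcf3, Tcf4 and Tcf12 are made in many tissues, and class II factors such as Twist1 and Hand2 are restricted partners that form a dimer with them and bind the E-box. Id proteins keep the helix-loop-helix but lack the basic region that contacts DNA, so an E protein held by an Id factor cannot bind. In the cushions that prefigure the heart valves, BMP signals act through SMAD proteins, and Id genes are well-known targets of that route. Tcf4 here is the bHLH gene and not Tcf7l2, the Wnt effector that has been called by the same name.

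Tag-seq reads a short tag per transcript. The cDNA, held at its 3′ end, is cut by NlaIII at CATG, and the 17 bases after the site are read and counted, so levels can be compared between genes without scaling to length. In principle the tag comes from the last NlaIII site before the 3′ end, but sites further upstream also gave tags, and 41 tag types matched the 7 genes, 31 of them inside a 3′ UTR. Those that carried most of the counts outside Tcf4 are shown because the comparisons turn on which of them moved. The capitals mark the NlaIII site and the base after it.

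Tcf3 tag 1: CATGGtctacaaggttattaa
Tcf3 tag 2: CATGTctgtttctgtttctag
Tcf3 tag 3: CATGCtcccttttcaaaaagg
Tcf12 tag 1: CATGTagttcctatggagtat
Tcf12 tag 2: CATGAagacagcacttcagat
Id1 tag 1: CATGTgttccagccgacgatc
Id1 tag 2: CATGTaatcgactacatcagg
Id2 tag 1: CATGGggagcgaaaacgttaa
Id2 tag 2: CATGAacgactgctactccaa
Id3 tag 1: CATGTgatgtatattaaactt
Id3 tag 2: CATGGatgagcttcgatctta
Id4 tag 1: CATGTgaaaattaaaagtaga
Id4 tag 2: CATGAagtttcatatctgtac
Id4 tag 3: CATGTtaagtcttttatccag
Id4 tag 4: CATGAggtgttcaatcacaaa

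Tcf3 tags 1 and 3 each sat at the last site of at least 1 transcript. They lay at chr10:80409557-80409577 and chr10:80409886-80409906 on the minus strand of GRCm38. Whether tag 3 came from a transcript with a shorter 3′ end or from an upstream site of a longer one was not tested. Tcf12 tag 1 lay at chr9:71844500-71844520 in the 3′ UTR, at the last site. Id1 tag 1 was the last site of its transcript too, and lay in the coding part at chr2:152736976-152736996. Id2 tag 1 lay in the 3′ UTR at chr12:25094287-25094307 and tag 2 in the coding part at chr12:25095877-25095897. Id3 tag 1 lay at chr4:136145324-136145344 in the 3′ UTR, at the last site. Id4 differed from the others, since only 9.22% of its tags came from the last site, and its main tag, at chr13:48264478-48264498, was site 4 counted from the end. In Tcf4 that share was 36.0%, and it was between 73.4% and 97.9% in the other 5 genes.

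Levels are tags per 1000000 listed tags (TPM). The libraries of the wild-type regions held between 4223810 tags (ventricles) and 6075421 (AVC), the null held 12977237, and between 70.7% and 74.5% of the tags of a library matched 1 gene. A tag type was listed from 6 tags up, which is 0.988 TPM at the depth of the AVC and 1.42 TPM at that of the ventricles. Intervals on levels and ratios are 95% intervals of counting error only. Twist1, the targeted gene, had 918 TPM in the wild-type AVC and 4.55 in its null, with the OFT at 299, the atria at 63.4 and the ventricles at 55.9, so the null library carried its label. Haemoglobin tags took 22.0% of the atria library, 4.75% of the ventricles and 3.05% of the null, and under 0.5% of the AVC and of the OFT. The summed cushion mesenchyme markers, with all 12 genes listed in every library, came to 4580 TPM (AVC), 4590 (OFT), 462 (atria), 449 (ventricles) and 989 (null AVC), and their part in the results below was not tested. In pooled tissue, fewer cells that express a gene and less RNA per cell cannot be told apart.

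Of the E proteins, Tcf3 had the highest level in the wild-type libraries. The OFT had 112 TPM, the AVC 92.7, its null 49.3, the ventricles 40.2 and the atria 33.4. The intervals of the null (45.6 to 53.3), the ventricles (34.4 to 46.8) and the atria (28.4 to 39.1) overlapped from one to the next, while OFT and AVC stood above them and apart from each other. For Tcf4 the null had 95.2 TPM, the wild-type AVC 84.6, the OFT 54.3, the ventricles 29.1 and the atria 10.7. Its order ran from null and AVC, whose intervals overlapped, down to OFT, ventricles and atria, which were all apart. Tcf12, which encodes the E protein HEB, followed the same order, from a null level of 75.1 TPM over 71.4 (AVC), 43.7 (OFT) and 16.8 (ventricles) to 10.5 (atria), with overlap between null and AVC and between ventricles and atria.

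Id2 was the most abundant of the Id factors in the AVC, the OFT and the null AVC. The AVC held 1086 TPM of it, the OFT 959.6 and the null AVC 801, against 102 for ventricles and 63.0 for atria, and no neighbouring intervals overlapped. Id3 followed, with 340.4 TPM for the null, 244 for the OFT, 241 for the wild-type AVC, 98.0 for the ventricles and 97.1 for the atria. The AVC and OFT did not differ beyond counting error in Id3, nor did the chambers, and the null stood above all of them. Id1 was lower, with the OFT at 62.3 TPM, the AVC at 53.0, its null at 30.6, the ventricles at 14.4 and the atria at 12.4, so the null lay between the wild-type AVC and the chambers. Id4 was the scarcest of the 7 genes in each wild-type library, with 25.7 TPM for the AVC, 11.0 for the OFT, 3.08 for the ventricles and 2.14 for the atria, and was highest in the null at 54.5 TPM. In the chambers Id4 rested on 10 and 13 tags, each from a single tag type that the other chamber did not list.

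**Figure D1:**
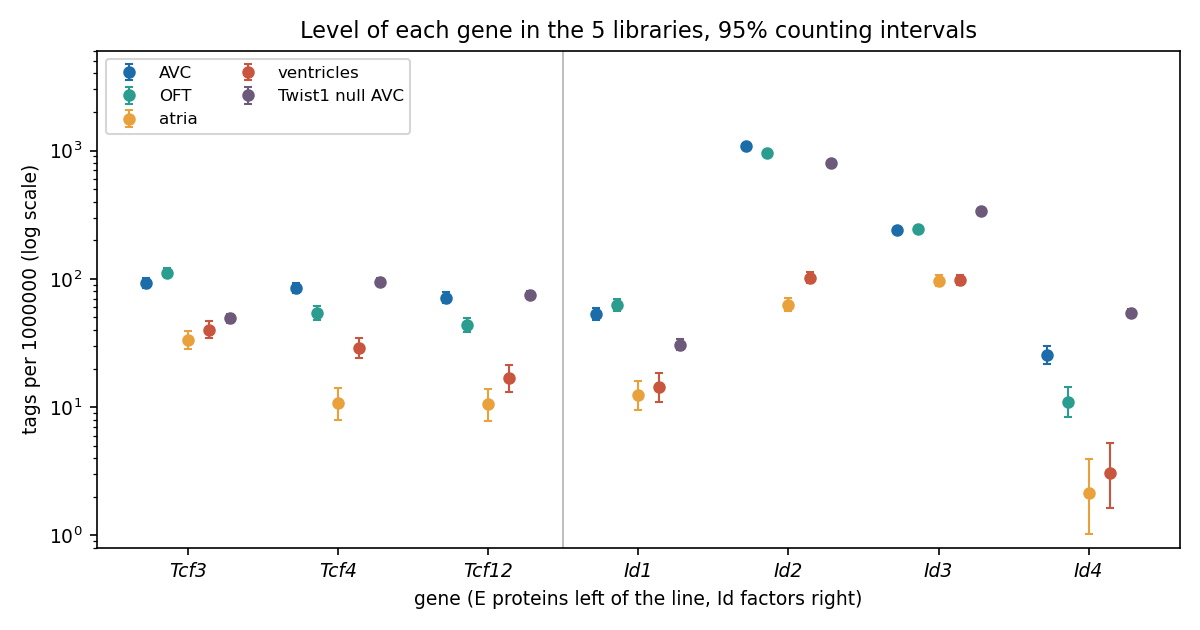
Level of each gene in tags per 1000000 (log scale) in the AVC, OFT, atria, ventricles and Twist1 null AVC libraries; points are single libraries and bars are 95% counting intervals. Each of the 7 genes was lower in both chamber libraries than in the wild-type AVC and OFT, and Id2 had the widest gap, from 63.0 TPM in the atria to 1086 in the AVC.

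As families, the E proteins summed to 249 TPM for the AVC, 209.8 for the OFT and 219.6 for the null AVC, and to 86.2 and 54.6 for ventricles and atria. The Id factors summed to 1406, 1277 and 1227 TPM for AVC, OFT and null AVC, and to 218 and 175 TPM for ventricles and atria. Per E protein tag the AVC had 5.66 Id tags (interval 5.35 to 5.98), its null 5.59 (5.37 to 5.81), the OFT 6.09, the atria 3.20 and the ventricles 2.52. The AVC and its null overlapped in this quantity, and both chambers lay below AVC, OFT and null. With Id2 left out of the sum the AVC had 1.29 Id tags per E protein tag, its null 1.94, the OFT 1.51, the atria 2.04 and the ventricles 1.34, and the chambers were then not the lowest.

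The makeup of each family also shifted. Id2 gave 77.2% of the Id tags of the AVC, 75.1% of those of the OFT and 65.3% of those of the null. In atria and ventricles Id2 gave 36.1% and 46.9%, and Id3 gave 55.6% and 45.0%. No Id2 tag has T as first base after the NlaIII site, while 97.9% of Id3 tags do. Tags of that kind took 13.6% of the AVC library and 15.0% of the OFT. They took 22.2% of the ventricles, 32.1% of the atria and 32.4% of the null. Their part in these shares and in the Id tags per E protein tag was not tested. Among E proteins, Tcf3 gave between 37.3% (AVC) and 61.2% (atria) of the tags of a wild-type library and 22.5% of those of the null. There Tcf4 was the leading E protein with 43.4% of the tags, against 34.0% in the wild-type AVC.

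**Figure D2:**
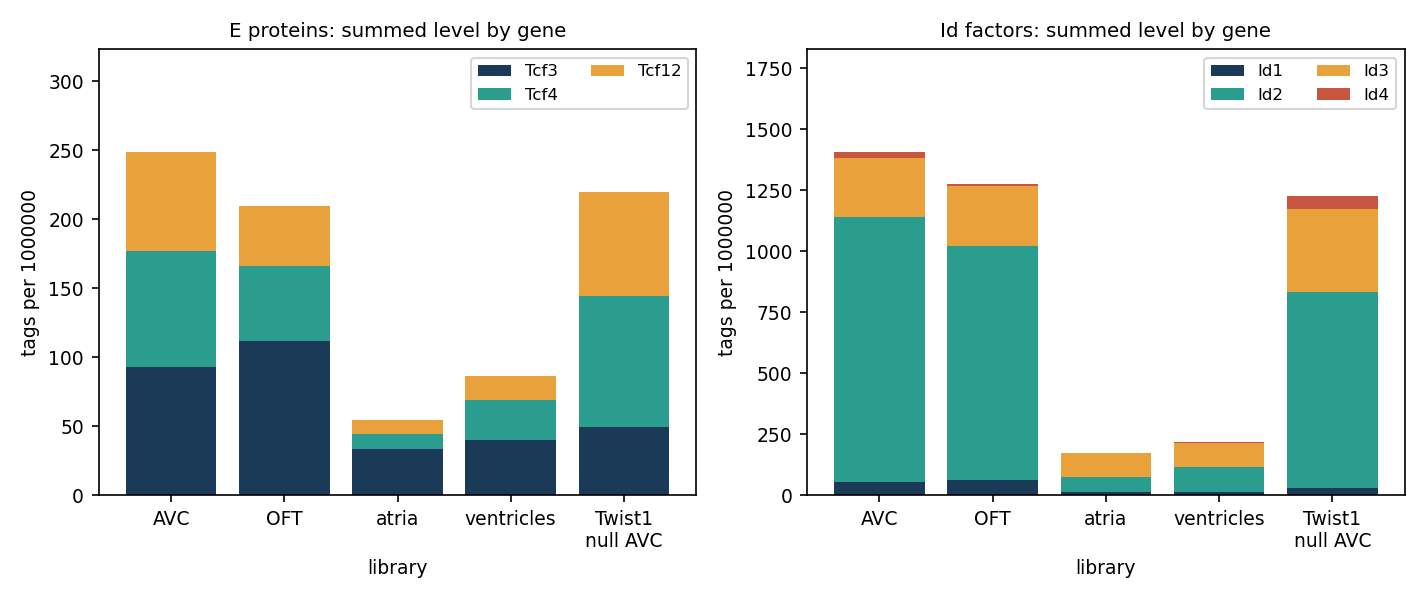
Summed level of the E proteins (left) and of the Id factors (right) in each library, in tags per 1000000 on linear axes that start at 0, with the share of each gene stacked. Id2 fills most of the Id bar in the AVC, OFT and null AVC, while Id2 and Id3 share it in the chambers.

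To ask which of these genes were enriched where cushions form, the AVC was set against the summed atria and ventricles with the exact test of edgeR, at the dispersion of 0.12 that the methods of the study name and an unadjusted threshold of 0.05. Tcf4, Tcf12, Id1, Id2 and Id4 were called higher in the AVC, that is 5 of 7 genes, and none was called lower. Over all 12503 genes tested 43.4% were called higher and 8.12% lower, and the median gene had a log2 ratio of 1.23, so a call in the AVC direction was common.

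Id2 stood 13.3-fold higher in the AVC than in the summed chambers (interval 12.3 to 14.4, exact p = 3.06e-06), a log2 ratio 2.50 above the median gene. Id4 was 9.93-fold higher (6.38 to 16.1, exact p = 9.23e-05) on 156 against 23 tags. These were the 2 genes that stayed called in each alternative run on them, 18 for Id2 and 19 for Id4. Among these alternatives, the minimum of tags per gene left ratio and exact p as they were. Tcf12 was 5.29-fold higher (4.31 to 6.53, exact p = 0.00182), Tcf4 was 4.35-fold higher (3.65 to 5.20, exact p = 0.00528) and Id1 was 3.96-fold higher (3.20 to 4.93, exact p = 0.00912). Tcf3 and Id3 had ratios of 2.53 and 2.48 with exact p of 0.0697 and 0.074, close to the median gene, from which they stood 0.11 and 0.08 away on the log2 scale. With TMM scaling, which lowered the median log2 ratio by 0.95 to 0.28, the calls of Tcf4, Tcf12 and Id1 were lost, with exact p of 0.115, 0.0522 and 0.167.

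The same chamber libraries served as control for the OFT, so its results are not independent of those of the AVC. Here 6 of 7 genes were called higher and none lower, with 40.6% of 12451 genes called higher, 8.88% lower and a median log2 ratio of 1.07. Id2 again had the widest difference at 11.8-fold (interval 10.9 to 12.7, exact p = 7.46e-06), followed by Id1 at 4.65-fold (exact p = 0.00382) and Id4 at 4.26-fold (exact p = 0.0116). The E proteins were nearer to the median gene, with Tcf12 at 3.23-fold (exact p = 0.0256), Tcf3 at 3.05-fold (exact p = 0.0306) and Tcf4 at 2.79-fold (exact p = 0.0483). Id3 was 2.51-fold higher with an exact p of 0.0707. Id2 was the sole gene still called with TMM scaling, and Id1, Id2 and Id4 were those with a p from the edgeR exact test, adjusted after Benjamini and Hochberg over all genes, under 0.05. Tags with T as first base after the NlaIII site made up 87.4% of the Tcf12 tags of the OFT. Leaving such tags out took Tcf12 to a log2 ratio of 0.48 (exact p = 0.592) on the few tags that remained. With only such tags, a setting chosen after seeing the data, it was 2.78 (exact p = 0.000407). Both settings changed the library totals too.

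Directly against each other, OFT and AVC did not differ in any of the 7 genes by the exact test of edgeR, at an unadjusted threshold where 5.22% of 12541 genes were called higher in the OFT and 7.35% lower. Id4 came nearest, with 11.0 TPM for the OFT and 25.7 for the AVC, a ratio of 0.429 (interval 0.312 to 0.583, exact p = 0.111), and was the 1 gene called at a dispersion of 0.05. Tcf12 and Tcf4 were lower in the OFT at ratios of 0.611 and 0.642, with intervals that reached no further than 0.719 and 0.743. Tcf3 and Id1 were higher there, at ratios of 1.21 and 1.17, and Id2 and Id3 had ratios of 0.883 and 1.01. Counting error alone thus separated Tcf3, Tcf4, Tcf12, Id1, Id2 and Id4 between the regions, and the assumed spread of the test did not.

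Between the chambers 0 of 7 genes were called by the exact test of edgeR at an unadjusted p under 0.05, where 11.1% of 10705 genes were called higher in the ventricles and 9.03% lower. Tcf4 had the largest ratio, 2.72 (interval 1.94 to 3.86, exact p = 0.0621), from 10.7 TPM in the atria to 29.1 in the ventricles. Tcf12 and Id2 had ratios of 1.60 and 1.62, and Tcf3, Id1, Id3 and Id4 had intervals that held 1. The signs for Tcf3, Id1 and Id3 turned when totals left out haemoglobin tags or were scaled by TMM.

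**Figure D3:**
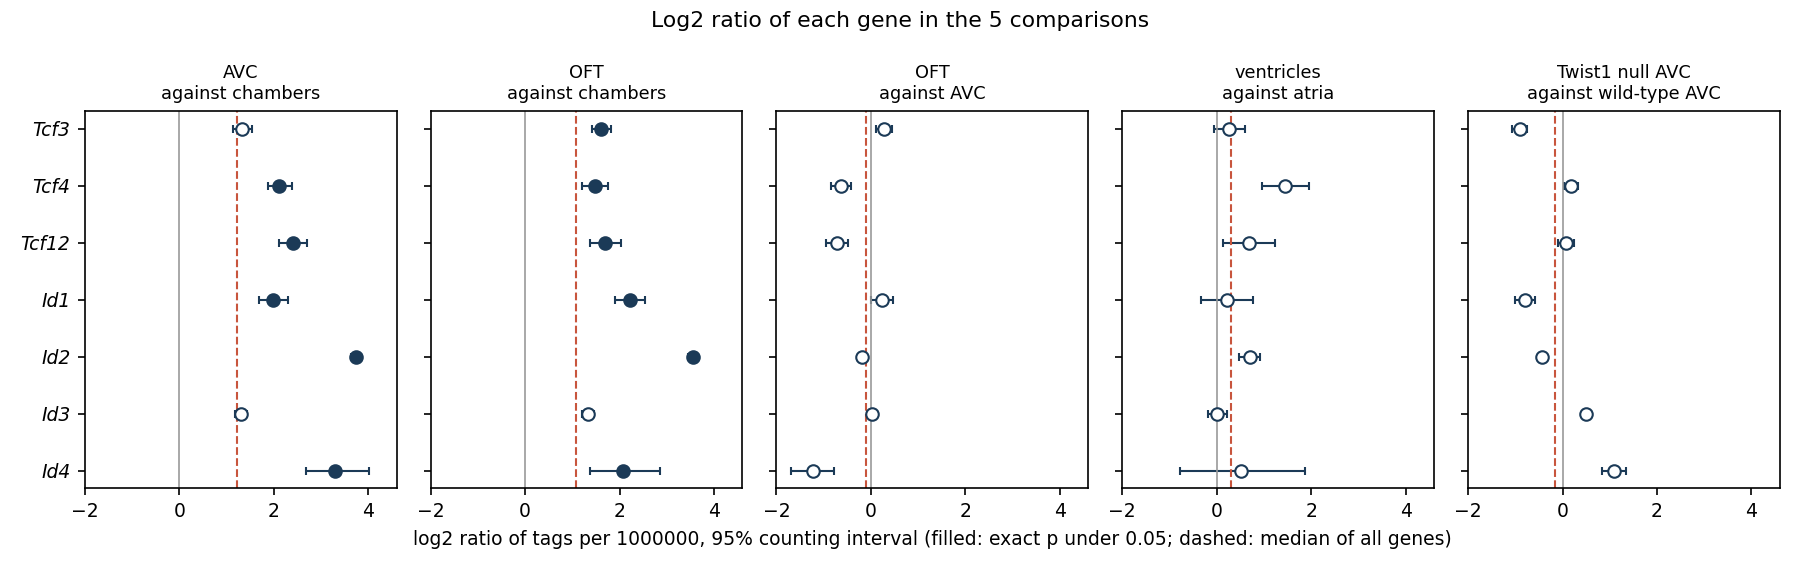
Log2 ratio of each gene in the 5 comparisons, with 95% counting intervals; filled points passed the exact test of edgeR at an unadjusted p under 0.05, and the dashed line is the median log2 ratio of all genes tested. Id2 and Id4 lie furthest to the right of the median gene in the AVC against the chambers, at 2.50 and 2.07 above it, and no point is filled in the last 3 panels.

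The null library was compared with the wild-type AVC to ask what changed with the loss of Twist1, an E protein partner. None of the 7 genes passed the exact test of edgeR in either direction at an unadjusted p under 0.05, where 11.9% of 12963 genes were called higher in the null and 12.7% lower. Counting intervals, which hold no spread between embryos, put Tcf3, Id1 and Id2 below 1 and Tcf4, Id3 and Id4 above it. Tcf3 had a ratio of 0.532 (0.474 to 0.597, exact p = 0.214), Id1 of 0.577 (0.497 to 0.671, exact p = 0.279) and Id2 of 0.737 (0.715 to 0.761, exact p = 0.541). Id4 had a ratio of 2.12 (1.78 to 2.54, exact p = 0.143), Id3 of 1.41 (1.33 to 1.50, exact p = 0.492) and Tcf4 of 1.13 (1.01 to 1.25, exact p = 0.814). Tcf12 had a ratio of 1.05 with an interval that held 1 (0.937 to 1.18, exact p = 0.924).

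Tag types of the same gene did not all move alike, and over all genes the difference went with the base after the NlaIII site. Tags with T in that place, called T-first tags here, made up 13.6% of the listed tags of the AVC and 15.0% of those of the OFT, but 22.2% for ventricles, 32.1% for atria and 32.4% for the null. In the 2780 genes with at least 50 tags of each kind, the log2 ratio of null to AVC was higher for the T-first tags than for the others by a median of 1.54, and it was higher in 80.6% of the genes. For the AVC against the chambers the median difference was -0.80 over 1428 genes and for the OFT -0.72 over 1340, while it was 0.09 for OFT against AVC and 0.19 for ventricles against atria. What set the T-first share of a library was not tested.

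The 7 genes differed widely in how far they depended on such tags. T-first tags made up 100% of Id1 tags over the 5 libraries, 97.9% for Id3, 84.3% for Tcf12, 73.4% for Id4, 31.7% for Tcf4, 26.4% for Tcf3 and 0% for Id2. The printed sequences show the difference in the first base after CATG, T in both Id1 tags and G or A in Id2 tags 1 and 2.

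Id4 has several tags of each kind. Its tag 1, which is T-first, went from 9.55 TPM in the wild-type AVC to 39.3 in the null, a ratio of 4.12 (interval 3.13 to 5.50). Tag 2, with A in that place, had 7.57 TPM in the AVC and 4.93 in the null, a ratio of 0.651 (0.439 to 0.973), and tag 4 had 4.11 and 3.24 TPM. Tag 3 is T-first as well and had 4.44 and 4.08 TPM, so the higher sum of Id4 in the null rested on tag 1, with tag 5, listed at 2.93 TPM, in the null alone. Summed over T-first tags the log2 ratio of Id4 was 1.63, and over its other tags -0.08.

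In Id3, T-first tag 1 had 232 TPM for the AVC and 338 for the null, whereas tag 2 had 9.38 TPM in the AVC and 2.85 in the null, a ratio of 0.304 (0.195 to 0.468). Tcf4 differed in the same direction as a sum, with log2 ratios of 1.63 over its T-first tags and -0.38 over the others. Its tag 2 by count, a T-first tag, had 8.72 TPM in the AVC and 28.5 in the null, while tags 3 and 4, with another base there, had 17.8 and 13.8 TPM in the AVC and 9.40 and 4.16 in the null. Its tags 1 and 6, also without a first T, went the other way, from 26.0 to 31.4 TPM (ratio 1.21, interval 1.004 to 1.462) and from 1.32 to 4.39 TPM (ratio 3.34, 1.58 to 8.10). Tcf12 had log2 ratios of 0.17 and -0.46 for the kinds of tags and Tcf3 of -0.36 and -1.13. All 5 genes with both kinds thus had the T-first tags on the higher side, by 0.64 for Tcf12 to 2.25 for Id3, as 80.6% of all genes with both kinds did.

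Id2 has no T-first tag, and tags 1 and 2 had ratios of 0.748 (0.722 to 0.775) and 0.699 (0.655 to 0.746), close to each other. Id1 has no other kind, and its tag 1 went from 50.7 TPM in the AVC to 30.1 in the null, a ratio of 0.594. Over the tags of the 7 genes listed in both libraries, 15 of 19 without a first T had a ratio below 1, with a median of 0.665, and 5 of 11 T-first tags did, with a median of 1.04. The intervals of 3 tags without a first T lay above 1, namely tags 1 and 6 of Tcf4 and tag 5 of Tcf12 (ratio 2.497), and those of 3 T-first tags lay below 1, both Id1 tags among them. When tags and library totals were restricted to T-first tags, a setting chosen after seeing the data, Tcf3 and Id1 were called lower in the null by the exact test of edgeR (log2 ratio -1.60, exact p = 0.0342, and -2.04, exact p = 0.00681). With T-first tags left out of both, none was called, Id4 had a log2 ratio of 0.28, Tcf4 of -0.02, Tcf12 of -0.11 and Id3 of -1.36 (exact p = 0.0898, on 57 and 37 tags). Of all genes, 1107 of 7155 were called higher and 987 lower with only T-first tags. Without them it was 1298 and 1544 of 11618. Id3 and Tcf12 also had negative log2 ratios with only T-first tags, though neither was called. The direction of Id3, Tcf4 and Tcf12 in the null thus depended on the tags counted together with the library totals, which changed with them. That of Id4 turned with last-site tags only (log2 ratio -0.12).

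**Figure D4:**
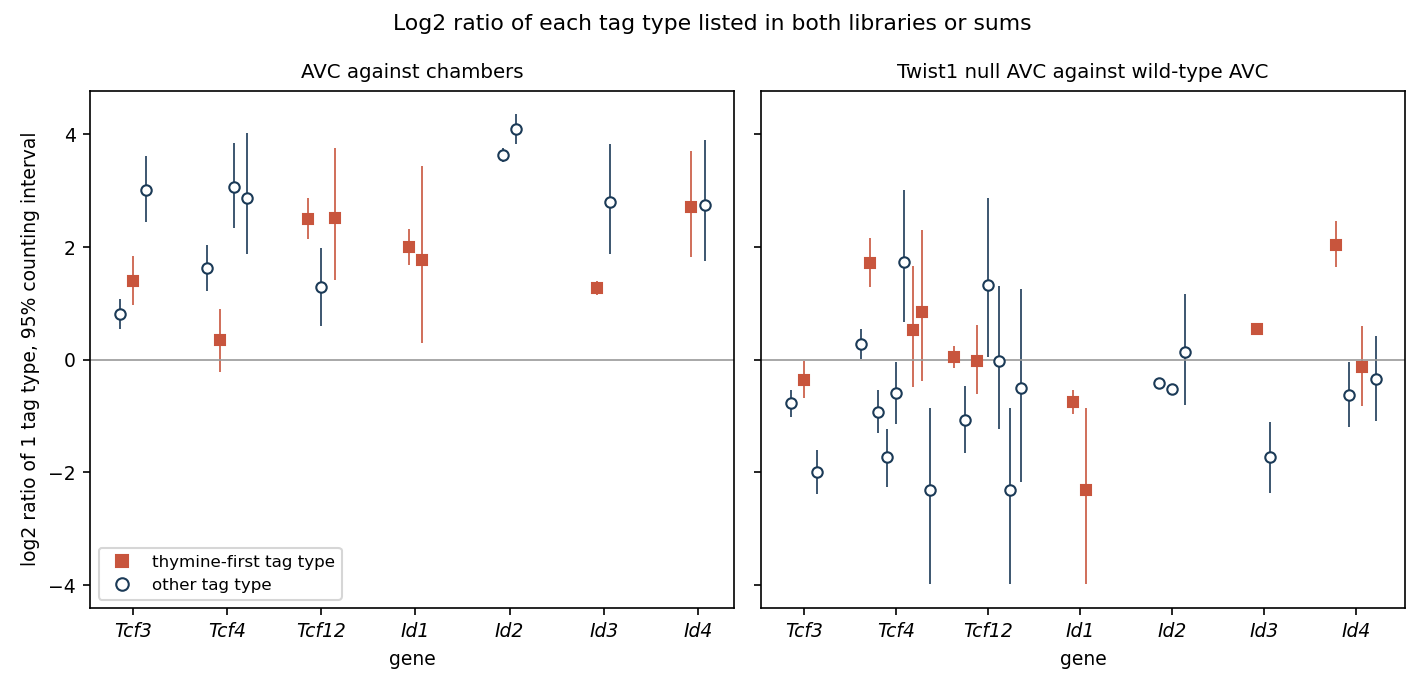
Log2 ratio of each tag type of the 7 genes that was listed on both sides of a comparison, for the AVC against the summed chambers (left) and the null against the wild-type AVC (right); squares are T-first tags, circles other tags, and bars 95% counting intervals. On the left all 18 tag types lie above 0, in a comparison where the median log2 ratio of all genes was 1.23. On the right 15 of 19 circles lie below 0 while the highest square is Id4 tag 1, a ratio of 4.12.

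For the AVC against the chambers the median gene had a log2 ratio of 1.23. All 10 tags without a first T that were listed on both sides had ratios above 1, from 1.76 to 17.0. So had all 8 T-first tags listed on both sides, from 1.27 to 6.53, but the interval of the lowest, Tcf4 tag 2, held 1 (0.863 to 1.87). T-first tag 9 of Tcf4 went the other way, with 8 tags in the ventricles and none listed in the AVC. Id2 tags 1 and 2 had ratios of 12.5 and 17.0. In Tcf3 tags 1 and 3 differed, since tag 3 was 8.05-fold higher in the AVC than in the chambers (5.43 to 12.3) and tag 1 was 1.76-fold higher (1.47 to 2.11). Tag 3 also had the lower ratio in the null, 0.253 (0.193 to 0.329), against 0.584 (0.496 to 0.688) for tag 1, and neither tag is T-first. For Id3, tag 1 gave a ratio of 2.41 and tag 2 of 6.95. By the exact test of edgeR the gene was called higher in the AVC without its T-first tag (exact p = 0.00472, on 57 against 12 tags). It was also called with only T-first tags (exact p = 0.0025), and both settings changed the library totals. Of all genes, 5042 of 11050 were called higher without T-first tags and 3183 of 5576 with only these.

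Partners and regulators of the 7 genes were read from lists chosen with results of these data known. Of 31 class II bHLH genes 15 had a tag. In the AVC against the chambers 5 of 11 tested were called higher, beside 43.4% of all genes, and none lower, with a median log2 ratio of 1.15 beside 1.23. In 1 of these calls the chambers had no listed tag. In the OFT 7 of 13 were higher, beside 40.6%, and 1 lower, with a median of 2.32 beside 1.07. Against the AVC, the OFT had 3 higher and 2 lower of 14, beside 5.22% and 7.35%. Those 3 were the muscle factors Myf5 and Myog and the somite factor Tcf15, at 1.33 to 1.52 TPM for the OFT and with no tag listed in any other library, and they are also 3 of the 7 above. The ventricles had 1 higher and 2 lower of 10 against the atria, beside 11.1% and 9.03%. In 2 of these 3 calls a chamber had no listed tag. Over all genes 12.7% were called lower in the null than in the AVC and 11.9% higher. Of the class II genes 3 of 12 were called lower in the null and none higher, with a median of -0.53 beside -0.16. They were Twist1 itself, Tcf21, an epicardial and mesenchymal factor that had 92.2 TPM in the AVC and 27.3 in the null (ratio 0.296, exact p = 0.0187), and Tcf23, which was listed with 0.988 TPM in the AVC and not listed in the null. That value of Tcf23 is 6 tags, the least a listed tag type can have, and an unlisted one can hold up to 5. With p from the edgeR exact test adjusted after Benjamini and Hochberg, Twist1 had 3.39e-11, Tcf21 0.113 and Tcf23 0.132.

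The list for the route from BMP ligands to SMAD proteins, which induces Id genes, had tags for 23 of 25 genes. It also held secreted BMP inhibitors and modulators and inhibitory SMAD proteins. Some of these were among the higher calls in the AVC and the OFT, so the counts do not measure how strongly Id genes are induced. In the AVC 14 of 21 genes tested were called higher than in the chambers, beside 43.4% of all genes, and 1 lower, with a median log2 ratio of 2.72 beside 1.23. In 1 of the higher calls the chambers had no listed tag. In the OFT 15 of 23 were higher, beside 40.6%, and 1 lower, with a median of 3.09 beside 1.07, and 3 of the higher calls were against chambers with no listed tag. Against the AVC the OFT had 3 higher and 1 lower of 23, beside 5.22% and 7.35% of all genes. Of the higher calls 2 were against no listed tag. The ventricles had 5 higher and 6 lower of 20 against the atria, beside 11.1% and 9.03% of all genes. In 9 of these 11 calls a chamber had no listed tag, which can stand for up to 5 tags of a type. With 5 tags filled in for each missing type, calls over all genes in that comparison went from 1189 higher and 967 lower to 431 and 154. In the null 2 of 21 genes were called higher and 2 lower, beside 11.9% and 12.7% of all genes. The median was -0.14 beside -0.16. Bmp2, the ligand of the AVC myocardium that acts on cushion formation, had 220.4 TPM in the AVC and 51.2 in the null (ratio 0.232, exact p = 0.005). Smad6, an inhibitory SMAD that is itself induced by BMP, stood at 57.9 and 18.03 TPM (ratio 0.311, exact p = 0.0242). The ligand Bmp4 had 9.05 TPM in the AVC and 27.3 in the null (ratio 3.01, exact p = 0.0374), and the receptor Acvr2a 11.4 and 32.1 (ratio 2.82, exact p = 0.0495). With p from the edgeR exact test adjusted after Benjamini and Hochberg, Bmp2 had 0.0538, Smad6 0.132, Bmp4 0.172 and Acvr2a 0.202.

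Of the 18 coregulators of E proteins and regulators of Id factors all had tags, 13 were called higher in the AVC than in the chambers, 10 of 18 in the OFT, beside 43.4% and 40.6% of all genes, and none lower in either, with median log2 ratios of 2.23 and 1.94 beside 1.23 and 1.07. For each region 1 of the higher calls was against chambers with no listed tag. None of the 18 was called between OFT and AVC by the exact test of edgeR at an unadjusted p under 0.05. Over all genes 5.22% were higher there and 7.35% lower. In the ventricles against the atria 2 of 17 were higher and 1 lower, beside 11.1% and 9.03%. Of these higher calls 1 was against no listed tag in the atria. In the null, Skp2, a subunit of the ubiquitin ligase that acts on Tcf3 protein among others, went from 10.4 TPM in the AVC to 54.6 (ratio 5.26, exact p = 0.00202), and Cbfa2t2, an ETO family corepressor, from 28.8 to 4.93 (ratio 0.171, exact p = 0.00126). The other 16 were not called, while 11.9% of all genes were called higher and 12.7% lower. The median was -0.27 beside -0.16. With p from the edgeR exact test adjusted after Benjamini and Hochberg, Skp2 had 0.0288 and Cbfa2t2 0.0229.

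The repressors Snai1, Snai2, Zeb1 and Zeb2 bind the same E-box as the bHLH dimers. In both the AVC and the OFT 3 of 4 were called higher than in the chambers, beside 43.4% and 40.6% of all genes. By the exact test of edgeR at an unadjusted p under 0.05, none was called between OFT and AVC or between the chambers. Over all genes 5.22% and 11.1% were called higher in these comparisons and 7.35% and 9.03% lower. Snai1, which drives epithelial to mesenchymal transition, had 43.5 TPM in the AVC and 4.78 in the null (ratio 0.110, exact p = 8.02e-05). Snai2 stood at 13.3 and 3.24 TPM (ratio 0.243, exact p = 0.0108), and the other 2 were not called. Over all genes 12.7% were called lower and 11.9% higher. With p from the edgeR exact test adjusted after Benjamini and Hochberg, Snai1 had 0.00494 and Snai2 0.0846. For the genes named from these lists, tags were not split into T-first tags and others.

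The cell type markers were read beside these values for the null against the AVC, where 11.9% of all genes were called higher and 12.7% lower. Of 12 cushion mesenchyme markers, Twist1 among them, 7 were called lower and 1 higher, and of 9 erythroid markers with a tag 5 were called higher and none lower. Of 12 cardiomyocyte markers 1 was lower, of 12 endothelial and endocardial markers 1 was higher and 1 lower, and of 8 epicardial markers 1 was lower. The 6 smooth muscle markers had 1 higher and 1 lower. None of 3 neural crest markers with a tag was called by the exact test of edgeR at an unadjusted p under 0.05. The higher endothelial call, the lower epicardial and smooth muscle calls and 1 higher erythroid call each had no listed tag on 1 side. A tag type that is not listed can hold up to 5 tags. Cardiomyocyte markers summed to between 18868 and 26034 TPM in all libraries but the atria, which had 8841. The part of these shifts in the levels of the 7 genes was not tested.

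Genes whose levels ran most like those of each gene were sought among 8787 genes with at least 200 tags, by Pearson's r of log2(TPM + 1) over the 5 libraries. Tcf3 ran closest to Cbx3 and Phf5a, Tcf4 to Marf1 and Vrk1, and Tcf12 to Map2k1 and Zfp955a. Id1 ran closest to Ykt6 and Abcf2, Id2 to Rab11b and Aff4, Id3 to Ubr3 and Ppp2cb, and Id4 to Prkx and Nav2. The first of each pair had r between 0.998 for Id4 and above 0.999 for the other 6 genes. With 5 points that share the contrast of AVC and OFT with the chambers such values are common, and between 32 genes for Id4 and 214 for Id1 reached an r of 0.99. Among the 7 genes, r ran from 0.488 for Tcf3 with Id4 to 0.977 for Tcf4 with Tcf12, and Tcf3 with Id1 had 0.969.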

How the data were processed

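Tag-seq was run on 5 pooled tissues, 1 library each. The deposited files give a raw count for each 17-base tag, not normalized. Per the methods of the study the authors filtered reads by Chastity, took 21 bases from each (the NlaIII site and the tag) and dropped tag types with 5 tags or fewer, and the smallest count in the files is 6. Their removal of tags 1 base from an abundant tag and their mapping to genes are not part of these files.

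Tags were matched in sense to virtual tags at every NlaIII site of 33363 GENCODE M21 transcripts (GRCm38) linked to RefSeq, with 20 adenines added at the transcript end. Tags of 1 gene were summed, and library sizes were all listed tags. No genome sequence was used, so a match elsewhere in the genome was not checked. Gene ratios and p-values are from edgeR 4.0.16 and its exact test, two-sided (R 4.3.3) over all genes with a tag in the libraries compared, with dispersion 0.12 and unadjusted p under 0.05 called. The exact test at this dispersion was tried on counts simulated at the same dispersion, for pairs of single libraries. That trial covered neither the matching of tags nor the summed chambers. Alternatives changed the scaling (TMM, DESeq2 1.42.0 size factors, totals without haemoglobin or of matched tags), dispersion (0.05, 0.4), adjustment, tag and gene minimums (more than 10, at least 50), sites, transcripts, neighbour tags, depth, fill for missing tag types (5 tags) and chamber library. A restriction to T-first tags was added after seeing the data. No batch is named in the labels.

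Named genes are the 7 members, Twist1, the genes of 4 partner and pathway lists called in the null comparison and, for each member, the 2 genes of most similar level. Outside that rule, Zeb1 and Zeb2 complete a list of 4, Hand2 and Tcf7l2 are background, Prkar2a shares a tag, and Tcf15, Myf5 and Myog were named after their values were seen. Members and lists were chosen with earlier results of these data known.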

Additional observations from a re-analysis of the deposited data

Results flagged for a closer look

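Tags that matched the opposite strand of the 7 genes were left out of all values above. The counts that follow hold only those with no sense match to any gene, which leaves out a tag opposite Tcf12 that matched many other genes in sense. Over the 5 libraries there were 3592 such tags for Id2, 884 for Tcf3, 822 for Tcf12, 809 for Tcf4, 376 for Id3, 213 for Id4 and 41 for Id1. For Id2 3522 came from the site of its main tag, and they ran beside the sense tags. The opposite-strand tag of that site had 184 TPM (AVC), 144 (OFT), 12.6 (atria), 31.3 (ventricles) and 112 (null AVC), which is 22.1, 19.5, 23.2, 38.9 and 18.01 per 100 sense tags of the same site. The main antisense tag of Id3 had 7.23 per 100 sense tags in the AVC and 1.85 in the null. GENCODE lists an antisense gene and a lincRNA on the opposite strand of Id4, and for Tcf12 only pseudogenes and a miRNA gene there, while Id1, Id2, Id3, Tcf3 and Tcf4 have no annotated gene opposite. Their origin was not tested.

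A tag that Tcf3 shares with Prkar2a was read 103 times over the 5 libraries, between 7 and 43 times in each, and was counted for neither gene.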

How the results depend on the processing

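No paired analysis was possible because each group had 1 library. Of 590 results of single genes in the alternative settings, 501 kept direction and side of the threshold, 39 lost the call, 23 gained one and 27 changed sign. Adjusted p, dispersion 0.05 or 0.4 and the minimum of tags per gene left each log2 ratio as it was, so no sign could turn there. That minimum left the exact p of edgeR unchanged too. The 501 therefore include results that could not change. In the AVC against the chambers 5 of 7 genes were called, all higher, but 2 with TMM scaling, 3 with DESeq2 size factors and 2 at dispersion 0.4. Of all 12503 genes 5427 were called higher there, but 3206, 3339 and 2534 in these settings. In the OFT 6 of 7 were called, all higher, but 1, 1 and 1, and 3 with adjusted p and 3 with 5 tags for a missing tag type. Of all 12451 genes 5056 were called higher there, but 3257, 3410 and 2420, and then 4252 and 3190. TMM took the median log2 ratio of all genes down by 0.95 (AVC) and 0.85 (OFT) and the share of calls that were higher from 84.2% to 59.4% and from 82.1% to 59.7%; in the null it raised the median by 0.24 and that share from 48.3% to 61.4%. In the other comparisons 0 were called, but at dispersion 0.05, 1 gene was called in the OFT against the AVC, 1 in the ventricles against the atria and 1 in the null. At that dispersion 1067 of 12541 genes were called higher in the OFT and 1506 lower. For the ventricles these counts were 2118 and 1290 of 10705, and for the null 2443 and 3005 of 12963. In the chambers 1 was called with tag types above 10 tags, 1 with last NlaIII sites, 3 without T-first tags and 2 with only these, and in the null 2 with only these. Over all genes the chambers had 1192 higher and 940 lower of 9291, and with last sites 1150 and 936 of 8999. Without T-first tags they had 909 and 986 of 8756, and with only these 1283 and 323 of 4214. The null had 1107 and 987 of 7155 with only T-first tags. Signs turned for ventricles against atria in Tcf3, Id1 and Id3 with TMM (log2 ratio -0.0541, -0.1052, -0.3079), DESeq2 (-0.0369, -0.088, -0.2907) and without haemoglobin (-0.0199, -0.071, -0.2737), in Tcf3 with last sites (-0.2315) and without T-first tags (-0.4276), in Id3 with matched totals (-0.0054), last sites (-0.0285), no neighbour tags (-0.0126), thinning (-0.0412) and fill (-0.0019), and in Id4 without T-first tags (-6.366, against no tag in the ventricles, so no measure of size). For OFT against AVC they turned in Id3 with matched totals (-0.014) and only T-first tags (-0.1356) and in Tcf4 with last sites (0.0392). For the null they turned in Id4 with last sites (-0.1215), without T-first tags in Tcf4 (-0.0226), Tcf12 (-0.1071) and Id3 (-1.3619), with only T-first tags in Tcf12 (-1.0716) and Id3 (-0.7068), and with all transcripts in Tcf12 (-0.0224). Their cause was not tested. Id1 without T-first tags and Id2 with only these gave no value, since no tag was left. Depth limits Id4 most, with 10 and 13 tags in the chambers.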

Other observations

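Unmatched tags that differ in 1 base from a tag of the 7 genes were not counted for any gene. Beside Tcf3 tag 2, a tag with the substitution G21A, counted from 1 at the first base of the NlaIII site, was read 103 times in the AVC, 10 times in the atria and 151 times in the null, where tag 2 itself had 128, 12 and 214 tags. It was not listed for the OFT, with 146 tags of tag 2, or for the ventricles, with 59.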
